A study of Mus musculus with 8 samples.

Results

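Polycomb repressive complex 2 (PRC2) methylates lysine 27 of histone H3 (H3K27), PRC1 reads that mark and ubiquitinates histone H2A, and KDM6 enzymes remove the methyl groups again. The BAF complex, whose ATPase is BRG1 (gene Smarca4), evicts Polycomb complexes from chromatin, and in many tissues genes are set by the balance of both systems. In Treg cells, EZH2 is induced on activation and is needed for their stable function in inflamed tissue. The expression of 9 genes of this machinery was followed here: Ezh1, Ezh2, Eed, Suz12 and Jarid2 of PRC2, Cbx7, Bmi1 and Rnf2 of PRC1, and the H3K27 demethylase gene Kdm6b. They were chosen by symbol, by their place in this machinery, out of 53465 gene identifiers in the files, and all 9 were found.

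RNA was sequenced from Treg cells of spleen and lymph nodes of C57BL/6 mice aged 3-4 weeks, in 8 libraries of 0.1 M cells, 1 library per condition. In every mouse the R26CAG-FlpoER allele encoded a tamoxifen (TAM)-inducible recombinase, and at least 1 Brg1 allele was floxed (BrgF). The WT library came from BrgF/+ Foxp3YFP-Cre/+ mice, which thus have only 1 floxed copy that Cre can delete and keep a normal one. The Brg1-sufficient Treg cells of mosaic females were labelled BrgF/ΔR Foxp3+/+ and the Brg1-deleted cells of the same kind of female BrgF/ΔR Foxp3YFP-Cre, where ΔR is a gene-trapped Brg1 allele that carries GFP. The untreated rKO1 mice were BrgF/deltaR Foxp3YFP-Cre/YFP-Cre. From such mice on Day 7 after TAM came the Brg1-deleted library, in which the trap remained (GFP+), and the Brg1-reexpressed library, in which TAM had removed it (GFP-, labelled BrgF/+ Foxp3YFP-Cre/YFP-Cre). The last 2 libraries, an experiment of their own, came from activated Treg cells (aTreg, CD44hi CD62Llo) of rKO1 mice on Day 7 after TAM. They were labelled Brg1-deleted and Brg1-reexpressed. The former label has a conflict, since its genotype is written as BrgF/F and its values are headed as WT.

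As a model, the design has limits that touch every value. Cre is driven by Foxp3, an X-linked gene, so deletion is limited to cells that express Foxp3, and rKO1 mice were those with the severe inflammation that the mosaic females lacked. Comparisons between mosaic and rKO1 libraries therefore set healthy against inflamed mice as well. Within the mosaic pair, the Brg1-deleted cells expressed YFP-Cre from Foxp3 and the Brg1-sufficient ones did not. Brg1 status, Cre and the sort by YFP cannot be told apart there. The rKO1 genotypes are written with Foxp3YFP-Cre on both X chromosomes, as in females, but these libraries held reads of the Y-linked gene Uty and the WT and mosaic ones had none. The labels and these reads are in conflict, the study used rKO1 mice of either sex, and sex and the mosaic or rKO1 setting cannot be told apart. Since each condition has a single library, replicate error is unknown and no test or p-value can be given. Intervals are exact 95% intervals of the read counts and cover counting error only. A pair of comparisons between libraries of like Brg1 status is given beside the others to show how far the genes differ without a change of Brg1 status. These set mice of different genotype or treatment side by side. The mosaic and the rKO1 total Treg pairs are instead subsets sorted from mice of the same kind. Differences between mice thus enter the former more, and sizes are set beside each other with this limit. In bulk RNA, fewer cells that express a gene and less RNA per cell cannot be told apart.

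Recovered reads per library ranged from 16294444 to 24049943, so that 1 read was worth 0.0412 to 0.0603 CPM (counts per 1 M reads), and 9564 to 9967 genes reached 5 CPM. Levels are given as scaled FPKM, the recovered reads per kilobase of exon, normalized to the library total after TMM scaling, and compare genes per length. Smarca4 stood at 13.6 scaled FPKM in WT cells and 11.9 in mosaic Brg1-sufficient cells, against 7.29, 6.80 and 5.57 in the mosaic, untreated rKO1 and GFP+ libraries. In the Brg1-reexpressed library it stood at 8.97. In aTreg cells the order went against the labels, with 11 in the library labelled Brg1-deleted and 9.17 in that labelled Brg1-reexpressed. The count takes in exons that the deletion leaves. All 13 BAF complex genes listed were lower in the latter library (median log2 -0.25, beside -0.06 over all genes). All 13 were also lower in reexpressed rKO1 than in mosaic Brg1-sufficient total Treg cells (median -0.65, beside -0.05). The ratio of Smarca4 to its paralog Smarca2 was in the order of the labels, at 3.44 (3.14 to 3.76) and 4.10 (3.72 to 4.53), with intervals that overlapped. In total Treg cells this ratio was 2.78 to 4.71 with Brg1 and 1.46 to 1.69 without. Both aTreg values, also that labelled Brg1-deleted, thus lay in the range with Brg1. Signs of aTreg differences by Brg1 status rest on the labels. If the library labelled Brg1-deleted carried Brg1, this pair would not compare Brg1 status at all. Which of these holds was not tested. Of 7 Treg identity genes, all were read in each library (summed CPM 2033 to 3453), and Foxp3 ranged from 13.6 to 134 scaled FPKM. In each pair by Brg1 status 1 of the 7 passed 2-fold, beside 6.12% (mosaic), 12.7% (rKO1) and 6.44% (aTreg) of all genes. Between the Brg1-deleted rKO1 libraries 0 did, beside 4.42% of all genes. The largest differences of the 7 were log2 2.88, mosaic Brg1-sufficient over WT, and -2.59, reexpressed rKO1 over mosaic Brg1-sufficient. The WT library had the lowest sum of the identity genes (2033 CPM, against 3017 in mosaic Brg1-sufficient cells) and the highest of the myeloid genes in total Treg cells (403 against 118), and its erythroid genes summed to 507 against 168 there. The part of these in differences from WT was not tested. Summed CPM of the other lineages in total Treg cells were 154 to 630 for 6 erythroid genes, 40.8 to 403 for 6 myeloid genes, 12.5 to 75.0 for 6 B cell genes, 7.46 to 37.9 for 5 plasma cell genes and 14.0 to 35.2 for 6 CD8 T or NK cell genes. In aTreg cells, erythroid genes summed to 1174 CPM in the library labelled Brg1-deleted and 22862 in that labelled Brg1-reexpressed, and myeloid genes to 447 and 689. The B cell genes there summed to 92.1 and 68.9 CPM, plasma cell genes to 26.9 and 89.6, and CD8 T or NK genes to 27.5 and 25.4.

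Ezh2 and Suz12 held the only matches to the motifs searched, and Cbx7 was the member that differed most between libraries. The promoters of these genes are given below. They are RefSeq windows of 300 bases (GRCm38.p6, 250 before to 50 after the start site), written 5′ to 3′ along the gene, at chr6:47594981-47595280 (- strand) for Ezh2, chr11:79992856-79993155 (+ strand) for Suz12 and chr15:79932597-79932896 (- strand) for Cbx7. The Cbx7 window lies inside the gene as annotated for the counts (chr15:79915807-79971119), not at its outer start. Which start site these cells use was not tested. Capitals mark a match.
Ezh2: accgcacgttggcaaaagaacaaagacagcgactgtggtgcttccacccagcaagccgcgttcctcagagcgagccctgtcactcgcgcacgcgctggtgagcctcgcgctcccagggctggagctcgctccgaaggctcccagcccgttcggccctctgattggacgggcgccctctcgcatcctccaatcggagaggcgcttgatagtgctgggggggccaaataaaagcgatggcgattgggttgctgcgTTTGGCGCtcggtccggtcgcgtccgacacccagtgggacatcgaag
Suz12: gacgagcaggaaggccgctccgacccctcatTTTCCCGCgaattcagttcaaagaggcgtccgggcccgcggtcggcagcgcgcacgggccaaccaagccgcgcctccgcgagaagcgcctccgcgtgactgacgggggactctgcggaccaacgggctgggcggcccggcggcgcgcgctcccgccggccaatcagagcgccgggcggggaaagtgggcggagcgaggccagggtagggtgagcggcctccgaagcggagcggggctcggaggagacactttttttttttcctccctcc
Cbx7: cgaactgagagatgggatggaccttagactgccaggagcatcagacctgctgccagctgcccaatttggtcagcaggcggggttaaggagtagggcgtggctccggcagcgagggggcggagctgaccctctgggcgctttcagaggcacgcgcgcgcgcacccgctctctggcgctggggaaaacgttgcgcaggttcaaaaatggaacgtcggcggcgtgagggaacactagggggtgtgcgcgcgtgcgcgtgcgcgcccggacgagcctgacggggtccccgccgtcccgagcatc
Of the 9 members, 8 had an entry, Jarid2 with 2 windows, and Kdm6b had none. The capitals are letters of E2F type, the family of factors that drives genes of the cell cycle. TTTGGCGC, in Ezh2, lay 3 bases after the start site and occurs in 0.514% of all 32851 promoters on either strand. TTTCCCGC, in Suz12, lay 219 bases before it and occurs in 1.07%. TGANTCA (7.81% of promoters), TGACGTCA (1.79%) and CCGGAAG (8.86%), searched on both strands, did not occur in any member's window. The 2 E2F-type motifs differ in letters and share no match here. A link of the matches to expression was not tested. The windows of the members were 54.7% to 72.7% G or C, against a median of 52.7% over all promoters.

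All 9 members were read in every library, with 121 to 2812 reads each, and passed 5 CPM in every comparison. Eed, the PRC2 subunit that binds the finished mark, had the highest level of the 9 in each library, between 21 and 38.0 scaled FPKM. It stood above 80.1% to 85.2% of the genes taken as expressed, a wider set than those at 5 CPM. Across the 6 total Treg libraries Ezh1 and Suz12 differed least between the highest and the lowest library, by 1.38 and 1.42-fold. Bmi1 differed by 1.61-fold, Eed by 1.69-fold, Rnf2 by 1.92-fold and both Ezh2 and Jarid2 by 2.10-fold. Kdm6b, at 3.29-fold, and Cbx7, at 10.0-fold, differed more than the rest. The Brg1-reexpressed library had the highest level of the 6 for 3 members (Ezh2, Eed and Bmi1) and the lowest for 2 (Cbx7 and Kdm6b). Among all 11041 genes at 5 CPM in any of the 6, it was highest for 26.6% and lowest for 24.8%.

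**Figure D1:**
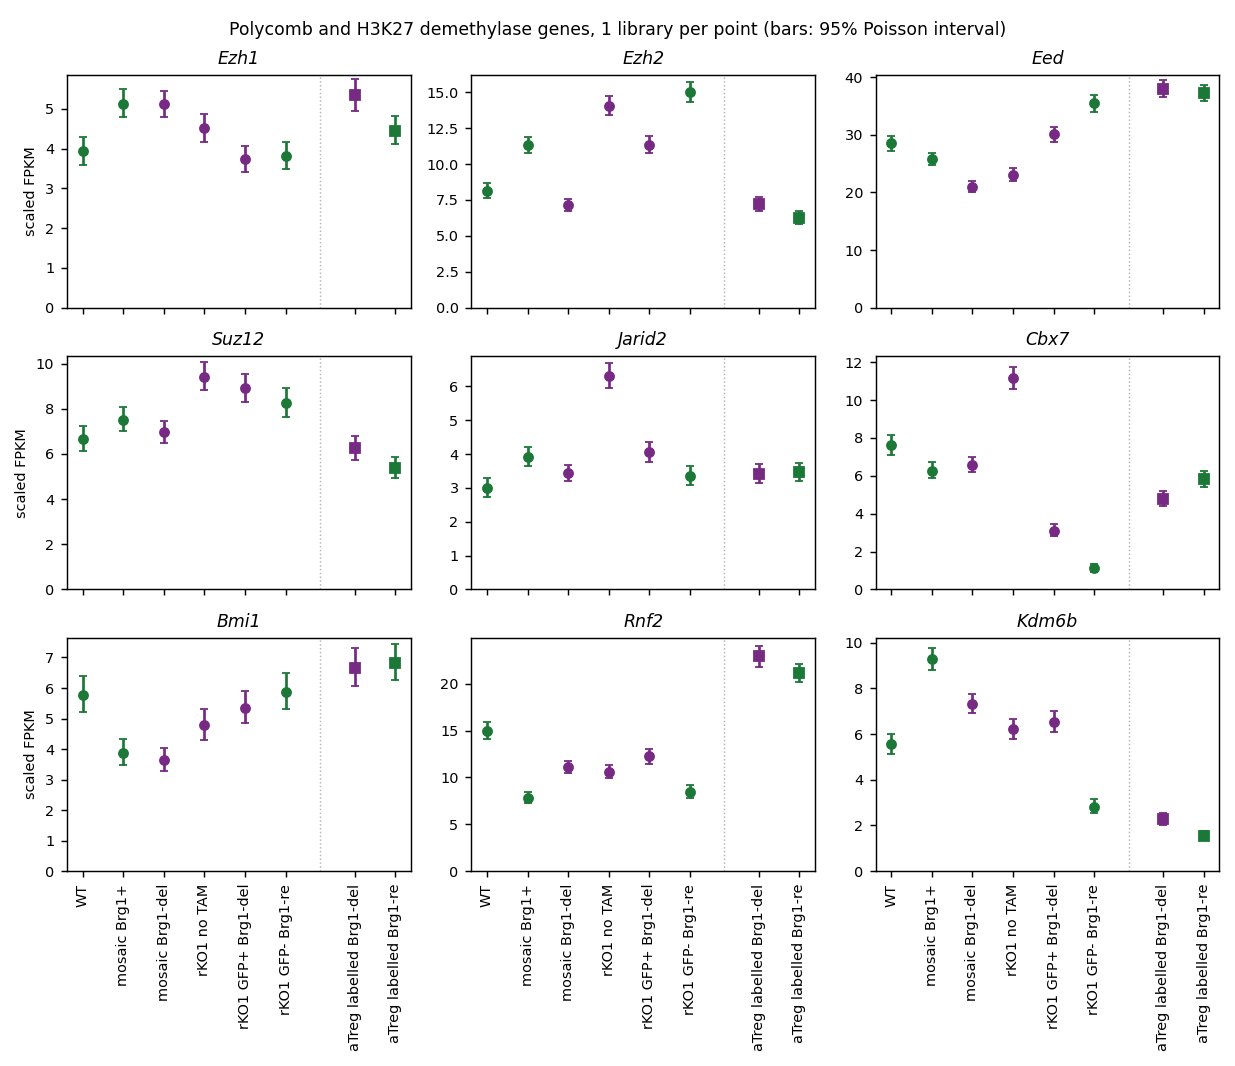
Scaled FPKM (y axis, from 0) of the 9 genes in each of the 8 libraries (x axis), with 95% Poisson intervals of the reads. Green marks libraries labelled as carrying Brg1 and purple those labelled Brg1-deleted, and squares right of the dotted line are the aTreg experiment. Cbx7 ran from 11.2 in untreated rKO1 to 1.11 in the Brg1-reexpressed library, whereas Ezh1 stayed between 3.73 and 5.14 in the 6 total Treg libraries.

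Ezh2 and Ezh1 encode the alternative catalytic subunits of PRC2. EZH2 is the form of dividing cells and the more active methyltransferase, and EZH1 is found in resting cells as well. Ezh2 (chr6:47530139-47595341 of GRCm38, - strand) stood at 8.13 scaled FPKM in WT, 11.3 in the mosaic Brg1-sufficient and 7.14 in the mosaic Brg1-deleted library. In rKO1 mice it stood at 14.1 without TAM, 11.4 in the GFP+ and 15 in the Brg1-reexpressed library. Its level was thus higher in each rKO1 library than in WT and mosaic Brg1-deleted cells, and its intervals overlapped between the mosaic Brg1-sufficient and GFP+ libraries (10.8 to 11.9 and 10.8 to 12) and between the untreated and reexpressed ones (13.4 to 14.7 and 14.3 to 15.7). In the aTreg libraries Ezh2 stood at 7.19 with the label Brg1-deleted and 6.28 with the label Brg1-reexpressed.

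Ezh2 was higher with Brg1 in both total Treg settings, by log2 0.66 in the mosaic pair (95% interval 0.55 to 0.77) and by log2 0.40 in the rKO1 pair (0.30 to 0.51). As many as 15.7% of all genes in the mosaic pair and 47.2% in the rKO1 pair differed at least as much. Scaled by the total count alone, the rKO1 difference was log2 0.05, since that scaling moves the median of all genes in this pair to -0.30. In aTreg cells Ezh2 was lower in the library labelled Brg1-reexpressed (log2 -0.20, -0.34 to -0.06). Its reading by Brg1 status rests on the labels. The pairs of like Brg1 status differed by similar amounts, log2 0.48 between mosaic Brg1-sufficient and WT and -0.31 between TAM-treated and untreated Brg1-deleted rKO1. Of the 7 comparisons made, that between the Brg1-deleted libraries of untreated rKO1 and mosaic mice had the largest difference of Ezh2, log2 0.98 (0.87 to 1.08). The highest and lowest of the 6 libraries, reexpressed rKO1 and mosaic Brg1-deleted, were further apart (log2 1.07) but differ in Brg1 and in mouse at once.

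Ezh1 (chr11:101191115-101226463, - strand) stood at 3.93 scaled FPKM in WT, 5.14 and 5.12 in the mosaic Brg1-sufficient and deleted libraries, and 4.52, 3.73 and 3.82 in the untreated, GFP+ and reexpressed rKO1 libraries. Its log2 difference with Brg1 was 0.01 in the mosaic pair (-0.13 to 0.14) and 0.03 in the rKO1 pair, both intervals spanning 0. In aTreg cells it stood at 5.34 and 4.46 (log2 -0.26, -0.42 to -0.10). The ratio of Ezh2 to Ezh1 within a library needs no scaling between libraries. It was 2.07 in WT, 2.20 in mosaic Brg1-sufficient and 1.40 in mosaic Brg1-deleted cells, and 3.11, 3.04 and 3.93 in the untreated, GFP+ and reexpressed rKO1 libraries. The ratio was thus higher with Brg1 in both pairs of total Treg cells, and the intervals did not overlap (2.02 to 2.40 against 1.28 to 1.52, and 3.55 to 4.36 against 2.74 to 3.37). In aTreg cells it was 1.35 and 1.41, with intervals that overlapped.

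Eed, Suz12 and Jarid2 encode the other PRC2 proteins of the set. SUZ12 holds the complex together, and JARID2 helps to bring it to chromatin. Eed (chr7:89954654-89980983, - strand), of which 6.82% of exon bases are shared with another gene, stood at 28.5 scaled FPKM in WT and 25.8 and 21 in the mosaic Brg1-sufficient and deleted libraries. It stood at 23.0, 30.1 and 35.5 in the untreated, GFP+ and reexpressed rKO1 libraries and at 38.0 and 37.3 in the aTreg libraries. Like Ezh2, it was higher with Brg1 in the mosaic pair (log2 0.30, 0.21 to 0.39) and in the rKO1 pair (0.24, 0.15 to 0.32), although the sign of the latter turned with total count scaling (-0.11). The difference between the 2 Brg1-deleted rKO1 libraries was larger (log2 0.38, higher after TAM).

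Suz12 (chr11:79993106-80034123, + strand) stood at 6.66 in WT, 7.52 and 6.96 in the mosaic Brg1-sufficient and deleted libraries and 9.43, 8.90 and 8.26 in the untreated, GFP+ and reexpressed rKO1 libraries, with 6.25 and 5.38 in aTreg cells. The 3 rKO1 libraries were above the others of total Treg cells, but the intervals of neighbours in this order overlapped, down to reexpressed rKO1 (7.65 to 8.90) and mosaic Brg1-sufficient cells (7.00 to 8.06). Neither total Treg pair differed with Brg1 beyond counting error. Jarid2 (chr13:44729474-44921643, + strand) stood at 6.32 in the untreated rKO1 library and between 3.0 and 4.05 in the other 5. Its difference with Brg1 was log2 0.19 in the mosaic pair (0.05 to 0.33) and -0.27 in the rKO1 pair (-0.43 to -0.10), and between the 2 aTreg libraries, at 3.43 and 3.47, it was 0.02. These PRC2 genes thus stayed under 2-fold in the comparisons by Brg1 status, while Jarid2 differed by log2 0.88 between the Brg1-deleted libraries of untreated rKO1 and mosaic mice.

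Cbx7 encodes a chromodomain protein that reads methylated H3K27 for PRC1 and is known from embryonic and blood stem cells. Cbx7 (chr15:79915807-79971119, - strand) stood at 7.61 scaled FPKM in WT (819 reads), 6.28 in mosaic Brg1-sufficient (862 reads) and 6.58 in mosaic Brg1-deleted cells (1036 reads). In rKO1 mice it stood at 11.2 without TAM (1384 reads), 3.10 in the GFP+ library (369 reads) and 1.11 in the reexpressed library (121 reads). The mosaic libraries were alike within counting error, and each of the 3 rKO1 libraries stood outside the intervals of all the others. In aTreg cells it stood at 4.77 and 5.81.

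In the rKO1 pair, Cbx7 was lower with reexpressed Brg1 by log2 -1.48 (-1.79 to -1.18), a 2-fold call that 5.45% of all genes matched or passed in size. Between the Brg1-deleted libraries of rKO1 mice, it was lower after TAM than without by log2 -1.85 (-2.02 to -1.68), a difference that 0.94% of all genes reached. The step between libraries of like Brg1 status was thus the larger in size, but it lies between mice with and without TAM. These 2 libraries also differed in reads of the Y-linked gene Uty (330 untreated, 99 after TAM). The part of this in the Cbx7 difference was not tested. In the mosaic pair the difference with Brg1 was log2 -0.07 (-0.20 to 0.06). In aTreg cells it was 0.28 (0.12 to 0.45), higher in the library labelled Brg1-reexpressed, and its reading by Brg1 status rests on the labels. Between the Brg1-positive libraries, reexpressed rKO1 against mosaic, Cbx7 was lower by log2 -2.49 (-2.78 to -2.22).

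Among the other PRC1 genes, Cbx6, which encodes another chromodomain protein, was like Cbx7 in standing highest of the 6 total Treg libraries in the untreated rKO1 (4.4 scaled FPKM) and lowest in the reexpressed one (1.5). It stood at 3.36 in WT, 3.48 and 3.07 in mosaic Brg1-sufficient and deleted cells, and 1.92 in the GFP+ library, and it was lower by log2 -1.20 after TAM within Brg1-deleted rKO1 cells. Its aTreg levels were 1.90 and 2.40.

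Bmi1 (PCGF4) and Rnf2 (RING1B) encode the RING finger pair of PRC1, of which RING1B is the ubiquitin ligase. Bmi1 (chr2:18677018-18686629, + strand) stood at 5.78 scaled FPKM in WT, 3.87 and 3.64 in mosaic Brg1-sufficient and deleted cells, 4.78, 5.36 and 5.87 in the untreated, GFP+ and reexpressed rKO1 libraries, and 6.67 and 6.83 in aTreg cells. No pair of libraries compared by Brg1 status differed in Bmi1 beyond counting error. Its highest of the compared differences was log2 0.60, reexpressed rKO1 over mosaic Brg1-sufficient. Rnf2 (chr1:151458004-151500955, - strand) stood at 15 in WT, 7.82 in mosaic Brg1-sufficient, 11.1 in mosaic Brg1-deleted, 10.6 in untreated, 12.3 in GFP+ and 8.46 in reexpressed rKO1 cells, and at 22.9 and 21.1 in aTreg cells. It was lower with Brg1, beyond counting error, by log2 -0.50 (-0.64 to -0.36) in the mosaic pair and -0.54 (-0.69 to -0.38) in the rKO1 pair. The aTreg value was log2 -0.12 (-0.22 to -0.02), labelled Brg1-reexpressed over deleted, or 0.12 with the labels turned. WT and mosaic Brg1-sufficient cells, which both carry Brg1 but come from mice of different genotype, differed more, by log2 -0.94 (-1.08 to -0.80). The WT library stood apart in other genes as well, with 4 of 4 tested myeloid and 3 of 4 tested erythroid genes past 2-fold lower in the mosaic library. Of all genes 9.32% passed 2-fold in either direction there.

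The ratio of Rnf2 to its paralog Ring1 was 2.34 in WT, 1.14 and 1.78 in mosaic Brg1-sufficient and deleted cells, and 1.75, 2.11 and 2.15 in the untreated, GFP+ and reexpressed rKO1 libraries. In aTreg cells it was 2.93 and 3.48. The lower Rnf2 of the mosaic Brg1-sufficient library thus also showed against Ring1 in the same library, whereas in the rKO1 pair both paralogs were lower in the reexpressed library and their ratio was not.

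Kdm6b (JMJD3) encodes an H3K27 demethylase that is induced by inflammatory and T cell signals, and Kdm6a (UTX) and Uty are its X- and Y-linked relatives. Kdm6b (chr11:69398508-69413675, - strand) stood at 5.57 scaled FPKM in WT, 9.28 in mosaic Brg1-sufficient, 7.33 in mosaic Brg1-deleted, 6.21 in untreated rKO1 and 6.53 in GFP+ cells, and at 2.82 in the reexpressed library (329 reads). The reexpressed library lay below the other 5, and its interval (2.53 to 3.15) did not meet theirs. In aTreg cells it stood at 2.28 and 1.55.

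With Brg1, Kdm6b was lower in the rKO1 pair by log2 -1.21 (-1.40 to -1.02), where 8.52% of genes differed as much, and it was higher in the mosaic pair (log2 0.34, 0.23 to 0.45). The library labelled Brg1-reexpressed was the lower of the aTreg pair by log2 -0.55 (-0.82 to -0.29), where 21.9% did. Smarca4 stood against these labels. Its ratio to Smarca2 was in their order, but both values lay in the range of total Treg libraries with Brg1. With the labels turned, that Kdm6b value would be 0.55, and with Brg1 in both libraries it would be no difference by Brg1 status. The 2 Brg1-deleted rKO1 libraries differed by log2 0.07, within counting error, and mosaic Brg1-sufficient and WT cells by 0.74 (0.60 to 0.87). The ratio of Kdm6b to Kdm6a was 1.80 in WT, 1.998 and 1.72 in mosaic Brg1-sufficient and deleted cells, and 2.43, 1.63 and 0.944 in the untreated, GFP+ and reexpressed rKO1 libraries. In aTreg cells it was 0.976 and 0.468, so that in both rKO1 experiments the ratio was lower in the library labelled Brg1-reexpressed. Kdm6a itself differed as well. With the label Brg1-reexpressed over deleted, its log2 difference was 0.50 in aTreg cells (546 against 346 reads) and -0.42 in the rKO1 pair (420 against 615). Between the Brg1-deleted rKO1 libraries it was 0.65, TAM over untreated (615 against 410), where Kdm6b hardly differed. Kdm6a stood between 2.33 and 4.64 in the 8 libraries. Uty had 0 reads in the WT and mosaic libraries, 330, 99 and 89 in untreated, GFP+ and reexpressed rKO1 cells and 216 and 81 in aTreg cells, so that Y-linked reads were present in the rKO1 libraries only, in unequal numbers. Their part in the Kdm6b differences was not tested.

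**Figure D2:**
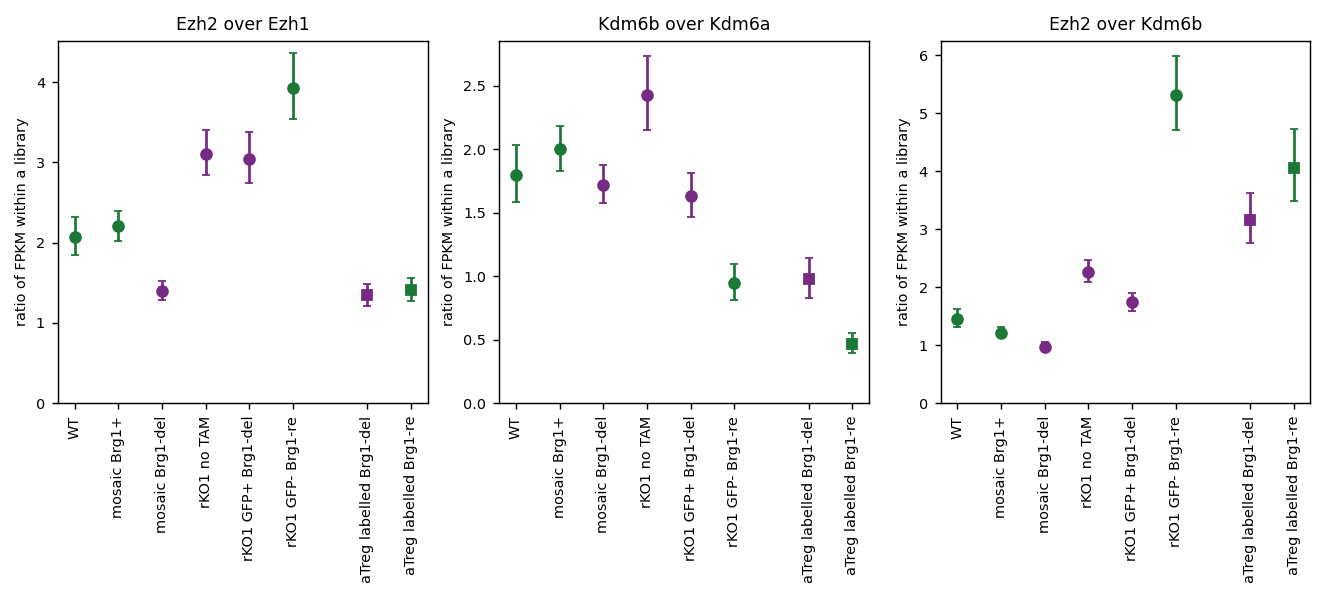
Ratios of FPKM within each library for Ezh2 over Ezh1 (left), Kdm6b over Kdm6a (middle) and Ezh2 over Kdm6b (right), with 95% counting intervals. Colours of the points are as labelled, green with Brg1 and purple Brg1-deleted, and squares are aTreg cells. The Brg1-reexpressed library had the highest ratio of Ezh2 to Ezh1 (3.93) and to Kdm6b (5.31), and of the 6 total Treg libraries the lowest ratio of Kdm6b to Kdm6a (0.944).

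The methyltransferase and the demethylase can be set against each other in the same way. Ezh2 over Kdm6b was 1.46 in WT, 1.22 and 0.975 in mosaic Brg1-sufficient and deleted cells, and 2.26, 1.74 and 5.31 in the untreated, GFP+ and reexpressed rKO1 libraries. The interval of the reexpressed library (4.72 to 6.00) lay above those of the other 5. In aTreg cells the ratio was 3.16 and 4.05, with intervals that met (2.76 to 3.63 and 3.48 to 4.74).

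Counted at 2-fold, 0 of the 9 members differed with Brg1 in the mosaic pair, where 6.12% of all 10066 tested genes did. In the rKO1 pair 2 of 9, Cbx7 and Kdm6b, were lower in the reexpressed library and none was higher, against 12.7% of all 10316 genes, 5.62% lower and 7.12% higher. The median log2 difference over the 9 was -0.11 in the rKO1 pair, beside 0.06 over all genes. In aTreg cells 0 of 9 passed, against 6.44% of genes, with a median of -0.12 beside -0.06. Coded as Brg1-deleted over sufficient, the mosaic median was -0.11 beside -0.03.

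In the comparisons that hold Brg1 status alike, 0 of 9 members passed 2-fold between untreated rKO1 and mosaic Brg1-deleted cells (15.1% of all genes). Ezh2, Jarid2 and Cbx7, at log2 0.98, 0.88 and 0.76, were the nearest to it. Between reexpressed rKO1 and mosaic Brg1-sufficient cells 2 of 9 were lower, Cbx7 and Kdm6b (log2 -1.72, -1.89 to -1.54), against 11% of genes lower and 21.8% in either direction. Between the Brg1-deleted rKO1 libraries, 1 of 9 was lower after TAM, Cbx7, against 2.26% of genes lower and 4.42% in all. Between mosaic Brg1-sufficient and WT cells 0 of 9 passed, against 9.32%. These comparisons share libraries with one another, so they are not independent of those by Brg1 status.

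**Figure D3:**
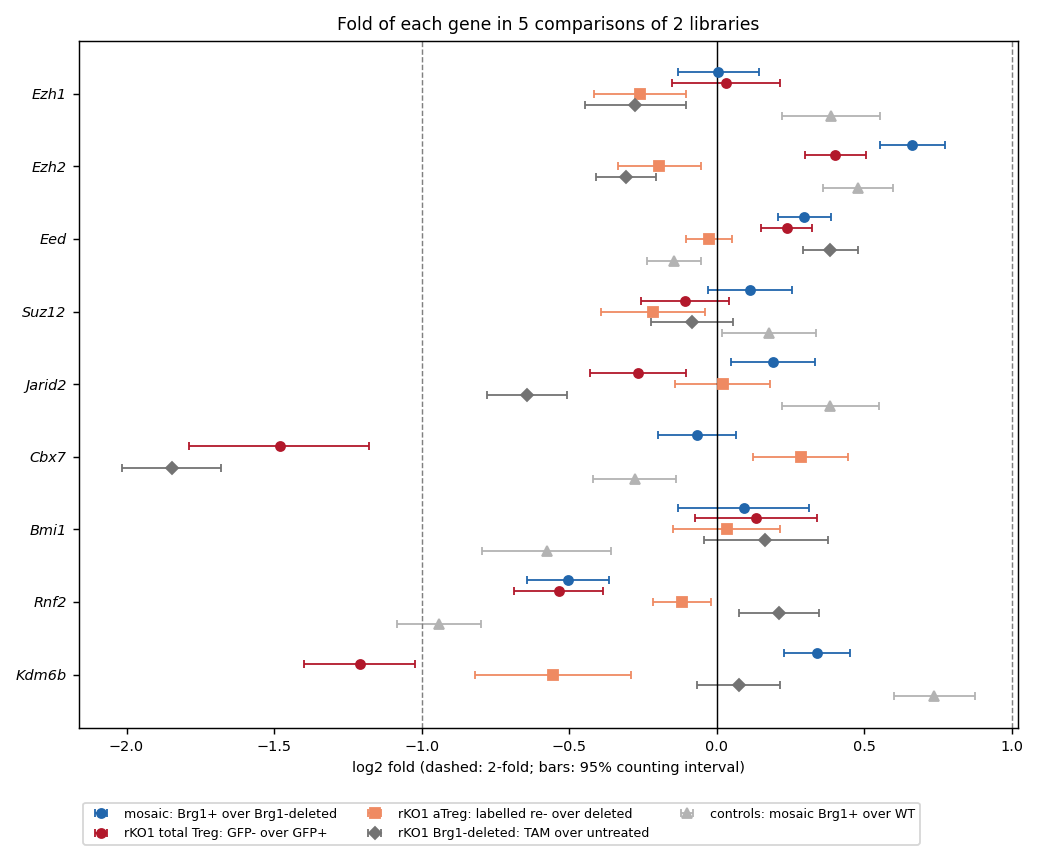
Log2 fold (x axis) of the 9 genes (y axis) in 5 comparisons of 2 libraries, with 95% counting intervals; colour marks the comparisons by Brg1 status and grey those between libraries of like status, and dashed lines are 2-fold. Cbx7 and Kdm6b in the rKO1 total Treg pair (-1.48 and -1.21) and Cbx7 between the Brg1-deleted rKO1 libraries (-1.85) lie past the dashed line.

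The rest of the machinery was taken from lists of its other subunits. Of 8 other PRC2 genes, 0 passed 2-fold in the mosaic, rKO1 and aTreg pairs, where 6.12%, 12.7% and 6.44% of all genes did. Rbbp4 and Rbbp7, histone-binding subunits that PRC2 shares with other complexes, had the highest levels: Rbbp4 stood at 24.6, 12.7, 18.5, 11.4, 18.4 and 27.7 scaled FPKM from WT through the mosaic pair to the untreated, GFP+ and reexpressed rKO1 libraries. It was higher in reexpressed rKO1 than in mosaic Brg1-sufficient cells (log2 1.12, 1.05 to 1.20), the only call in this list. Rbbp7 ranged from 57.6 to 108 in total Treg cells and stood at 112 and 105 in aTreg cells.

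Of 21 other PRC1 genes, 18 were tested in the rKO1 pair. Of these 15 were lower in the reexpressed library, with a median of log2 -0.45, beside 0.06 over all genes, and 2 passed 2-fold, both lower (12.7% of all genes passed and 5.62% were lower): Mga (log2 -1.24, -1.43 to -1.05), the large subunit of the PRC1.6 form, and Scmh1 (-1.07, -1.63 to -0.52), a PRC1-associated protein, with 41 and 94 reads. In the same pair 4 of 4 tested myeloid genes were lower, 2 past 2-fold, and their sum was 40.8 against 89.3 CPM. Their part in the difference was not tested. In the mosaic pair the median was 0.14 in the other coding, Brg1-deleted over sufficient, and 0 of 18 passed. In aTreg cells 0 of 17 passed (median 0.05). Mga and Scmh1 were also lower in reexpressed rKO1 than in mosaic Brg1-sufficient cells, with Cbx6 and Rybp, 4 calls of 18 where 11% of all genes were lower and 21.8% passed in either direction. Pcgf2, a paralog of Bmi1, had 10, 18 and 6 reads in the WT and mosaic libraries and 112, 43 and 54 in untreated, GFP+ and reexpressed rKO1 cells.

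Of 8 PR-DUB genes, whose complex removes the ubiquitin that PRC1 places, 7 were tested. None passed 2-fold in the 3 pairs by Brg1 status (6.12%, 12.7% and 6.44% of all genes), with medians of log2 -0.44 in the rKO1 pair, -0.38 in aTreg cells and 0.23, as deleted over sufficient, in the mosaic pair. Foxk1, a DNA-binding partner, stood at 5.68 scaled FPKM in mosaic Brg1-deleted, 3.87 in mosaic Brg1-sufficient and 1.42 to 2.15 in the other 4 total Treg libraries, and Mbd5 was lower in reexpressed rKO1 than in mosaic Brg1-sufficient cells (log2 -1.56). Of 13 BAF genes, 0 passed 2-fold in any of the 7 comparisons, Smarca4 included, where 4.42% to 21.8% of all genes did.

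Polycomb complexes are best known for silencing developmental loci and Cdkn2a and Cdkn2b, inhibitors of the cell cycle on chromosome 4. Of 9 such loci, Gata4 had 0 reads in every library and Hoxa5, Hoxa9 and Hoxa10 had at most 3 reads. Cdkn2a (chr4:89274471-89294653, - strand) had 3, 4 and 2 reads in WT, mosaic Brg1-sufficient and mosaic Brg1-deleted cells and 89, 24 and 91 in untreated, GFP+ and reexpressed rKO1 cells. Cdkn2b (chr4:89306299-89311039, - strand) had 15, 54 and 11 reads in the first 3 and 341, 227 and 318 in the rKO1 libraries. Both were thus higher in all 3 rKO1 libraries than in WT and mosaic cells, with or without Brg1.

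Within the rKO1 pair Cdkn2a was higher with reexpressed Brg1 (log2 2.05, 1.39 to 2.77), and Cdkn2b, at log2 0.61, stayed under 2-fold. In aTreg cells Cdkn2a had 1 and 9 reads, and Cdkn2b was higher in the library labelled Brg1-reexpressed (130 against 23 reads, log2 2.34, 1.70 to 3.05). In mosaic cells both were under 5 CPM. Between the Brg1-deleted libraries, Cdkn2b was higher in untreated rKO1 than in mosaic cells by log2 5.28 (4.44 to 6.32). The other loci passed 5 CPM in none of the comparisons.

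Since Ezh2 is a gene of dividing cells, 15 proliferation genes were set beside it. In the rKO1 pair all 15 were higher in the reexpressed library, 11 of them past 2-fold, with a median of log2 1.20 and a summed level of 2696 against 1076 CPM. Of all genes 7.12% were higher past 2-fold in this pair, and their median was 0.06. Ezh2 was higher there by log2 0.40, less than each of the 15, whose lowest was 0.55. In the mosaic pair 12 of 15 were lower without Brg1 (median -0.26, beside -0.03 over all genes), and Ezh2 was lower by log2 -0.66. None of the 15 passed 2-fold there, where 6.12% of all genes did. In aTreg cells all 15 were higher with the label Brg1-reexpressed (median 0.63, beside -0.06 over all genes), where Ezh2 was lower. Of the 15, 4 passed 2-fold, and of all genes 6.44% did. In untreated rKO1 cells the median of the 15 stood at log2 -0.40 relative to WT and Ezh2 at 0.79.

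**Figure D4:**
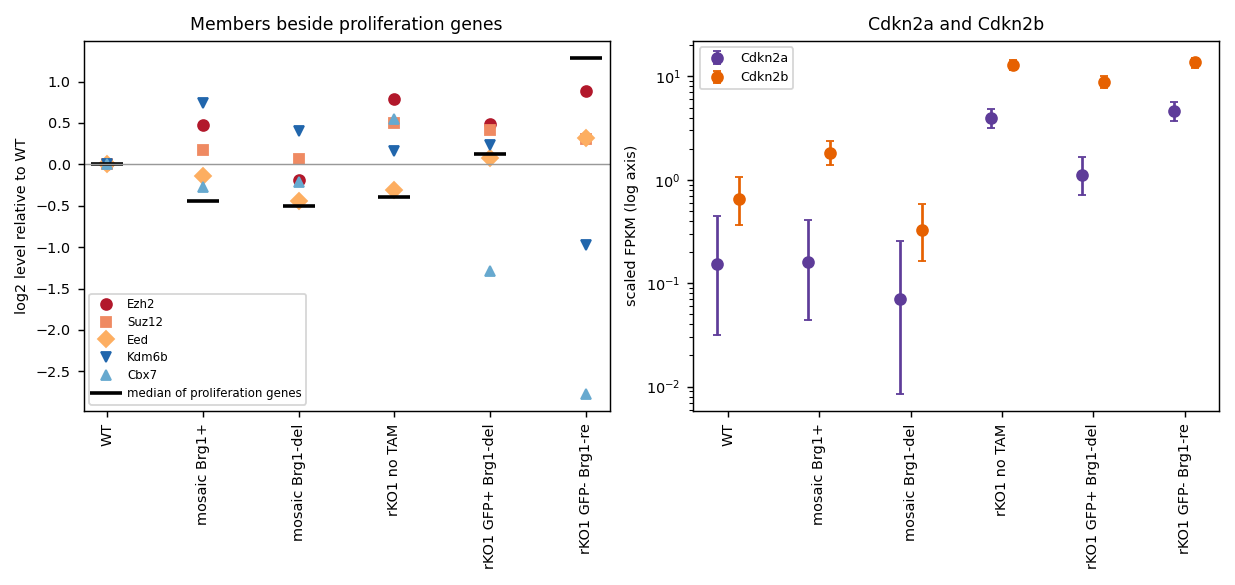
Left, log2 level relative to WT (y axis) of 5 members and the median of 15 proliferation genes (black bars) in the 6 total Treg libraries (x axis). Right, scaled FPKM of Cdkn2a and Cdkn2b on a log axis with 95% Poisson intervals. Proliferation genes peaked in the Brg1-reexpressed library (1.29), Cbx7 was lowest there, and Cdkn2a and Cdkn2b stood higher in the 3 rKO1 libraries than in the other 3.

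Across the 6 total Treg libraries, the log2 levels of Ezh2 and Suz12 correlated with r = 0.82, Suz12 and Jarid2 with 0.80 and Cbx7 and Kdm6b with 0.74, whereas Ezh1 and Bmi1 had -0.96 and Eed and Cbx7 -0.82. These are descriptions over 6 points that share scaling and differ in mouse, inflammation and Brg1 at once. Among 4816 genes at 5 CPM in each of the 6 and with an SD of at least 0.3 log2 across them, the patterns most like that of Ezh2 were those of Dubr (r = 0.99), Gpr183, Arl5a, Eid1 and Cst7. For Ezh1 they were Rgp1, Srbd1, Phrf1, Rnf123 and Eif4g3, for Cbx7 Kif1b, 2610035D17Rik, Tnfrsf26, Neurl4 and Ip6k1, and for Kdm6b Zfp592, Hivep2, Pus7, Hivep1 and Zfp467, each with r between 0.97 and 0.99. A search of so many genes over 6 points will return high correlations for most patterns.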

How the data were processed

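The values deposited by the authors are FPKM per Ensembl gene, made from SMART-Seq v4 cDNA read as paired ends. The submitters' processing notes name HISAT2 2.0, StringTie 1.3.3b, featureCounts 1.5.0-p3 and mm10. Each FPKM was multiplied by merged exon length (GENCODE M21, GRCm38; 53360 of 53465 identifiers) and by a library total, which gave whole reads (within 0.02) for 93.4% of 26020 genes in the total Treg experiment, 1552 more with another length, and for 100% of 21242 in the aTreg experiment. All 9 members came out whole. The design allowed for counts, and FPKM were held. Each experiment was scaled by an own TMM in Python 3.11.15 (NumPy 2.4.6, SciPy 1.17.1, pandas 2.3.3, matplotlib 3.10.9), tested on simulated data. The 2 experiments were scaled separately, and levels set across them are only side by side. For log2 folds 0.125 reads were added. Genes entered a comparison at 5 CPM in either library and were called at 2-fold. With 1 library per group there is no p-value. Intervals are exact 95% binomial, and 3 reads were taken as the floor. Alternatives were the scaling, the filter, the fold and the pseudocount (0.1 FPKM).

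The members and the 13 other lists (other PRC2, other PRC1, other H3K27 demethylases, PR-DUB, Polycomb target loci, BAF, proliferation, Treg identity, B cell, plasma cell, myeloid, CD8 T or NK, erythroid) were chosen with earlier results of these data known. The text names all members, genes of the chromatin lists called in a comparison described, up to 3 of the highest level per list, paralogs and Smarca4, and the 5 genes most like Ezh1, Ezh2, Cbx7 and Kdm6b, out of genes whose SD was at least 0.3 log2. Of the loci and PRC1 lists, genes named with counts near 0 and Cbx6 were added after their values were seen. 1 item is not reported here.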

Additional observations from a re-analysis of the deposited data

Results flagged for a closer look

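Differences between libraries labelled Brg1-positive and Brg1-deleted that went opposite ways in 2 settings, each beyond counting error, are given as log2 folds of Brg1-positive over Brg1-deleted. Each rests on 1 library per group, and the difference between settings was not tested. Ezh2 was 0.66 in the mosaic pair and 0.40 in rKO1 total Treg cells, against -0.20 in aTreg cells. Jarid2 was 0.19 in the mosaic pair and -0.27 in rKO1 total Treg cells. Cbx7 was -1.48 in rKO1 total Treg cells and 0.28 in aTreg cells. Kdm6b was 0.34 in the mosaic pair, -1.21 in rKO1 total Treg cells and -0.55 in aTreg cells. Where aTreg cells enter, Smarca4 stood against the labels (11 scaled FPKM with the label Brg1-deleted, 9.17 with the label Brg1-reexpressed). Its ratio to Smarca2 was in their order (3.44 and 4.10), but both values lay in the range of total Treg libraries with Brg1 (2.78 to 4.71). With Brg1 in both aTreg libraries, the aTreg values would not be differences by Brg1 status. Erythroid genes summed to 1174 and 22862 CPM in these libraries. The part of the labels or of the erythroid genes in these differences was not tested.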

How the results depend on the processing

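No paired analysis was possible because each condition has 1 library and no result comes from a test. Of 315 alternative values of members' log2 folds, 292 stayed within counting error, 23 moved and 0 reversed a called value. Those that moved did so, all but 1, under total count scaling. That scaling shifted the median of all genes by over 0.1, to -0.30 in the rKO1 pair, 0.18 between untreated rKO1 and mosaic Brg1-deleted cells and 0.10 in the mosaic pair (Brg1-deleted over sufficient). The genes past 2-fold then split into 373 higher and 1258 lower (735 and 580 as reported), 1256 and 470 (849 and 724), and 307 and 300 (210 and 406). Between TAM-treated and untreated Brg1-deleted rKO1 cells the split was 193 and 352 (222 and 233), and with FPKM as deposited that of mosaic Brg1-sufficient over WT was 411 and 579 (521 and 424). Signs turned under some scaling in 11 of 63 member folds, of which only Eed in the rKO1 pair and Ezh1 between untreated rKO1 and mosaic Brg1-deleted cells had intervals that left out 0.

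Members past 2-fold between untreated rKO1 and mosaic Brg1-deleted cells numbered 0 as reported, 2 by total count (Ezh2, Jarid2), 1 with FPKM as deposited and 1 with median-of-ratios factors (Ezh2). At 1.5-fold they numbered 3 there, 1 in the mosaic pair, and 2 each between the Brg1-deleted rKO1 libraries and between mosaic Brg1-sufficient and WT cells. At 2-fold the last was 1 (Rnf2) with FPKM as deposited and 0 as reported. At 1 CPM in either library the genes past 2-fold numbered 1559, 2700 and 1735 in the mosaic, rKO1 and aTreg pairs (616, 1315 and 646 at 5 CPM). They numbered 3065 between untreated rKO1 and mosaic Brg1-deleted, 3710 between reexpressed rKO1 and mosaic Brg1-sufficient, 1530 between the Brg1-deleted rKO1 and 2068 between the control libraries (1573, 2250, 455 and 945). The higher counts come with genes of few reads.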
